A study of Mus musculus with 6 samples.

Results

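The genes described here are 43 genes of mitosis: the cyclins and kinases that drive cells into division, the motors and spindle factors that move chromosomes, the kinetochore, the spindle checkpoint, the chromosomal passenger complex, condensin and the cytokinesis machinery. They were picked by symbol, with earlier results of these data known, from the 23518 genes of one table of mouse ear skin RNA sequencing. There are 3 HdR libraries, from mice with a HOIL1 protein without the RING1 domain, and 3 wild-type (WT) libraries, against which they are set. HOIL1, the product of Rbck1, is a subunit of LUBAC, the complex that builds linear ubiquitin chains in TNF and NF-κB signalling. Every ear had received 10 mg of cream with 5% imiquimod, a Toll-like receptor agonist that causes psoriasis-like skin inflammation, and was sampled on day 1, so that no untreated skin enters the comparison. The labels give no age, sex or strain and do not say whether the samples are separate mice, so that p-values measure only the spread between these samples. The labels name no Cre or promoter for the HdR allele.

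In skin, dividing cells are mainly basal keratinocytes of the epidermis and the matrix cells that feed the growing hair, with a smaller number of dividing immune and stromal cells. Cyclin B with Cdk1 starts mitosis, kinesins and spindle factors build the spindle, and kinetochores couple chromosomes to it. The checkpoint holds the anaphase promoting complex, which destroys cyclin B and securin, until all chromosomes are attached. Most of these genes are transcribed mainly in G2 and mitosis. Their promoters are known for the cell cycle homology region (CHR), which binds the MuvB core of the DREAM and B-MYB complexes, and for CCAAT boxes, which bind NF-Y. FOXM1 joins the B-MYB and MuvB complex at these promoters. In bulk tissue, fewer dividing cells and less RNA per dividing cell cannot be told apart.

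The deposited values were aligned bases summed per gene. They totalled 4433 to 5264 Mb in HdR and 5038 to 5966 Mb in WT, equal to 14.8 to 19.9 M read pairs if each pair gave 300 bases. Levels are coverage scaled to bases per Mb, a unit worth 11.7 to 23.6 such pairs depending on the library. Rbck1 had 23.9, 13.0 and 19.7 bases per Mb in HdR, against 66.6, 55.1 and 64.1 in WT, and such a sum does not resolve the deleted part of the gene. The basal keratinocyte keratins Krt5 and Krt14, which mark skin, stood at 1210 bases per Mb or above in all 6 libraries. HdR libraries held relatively less coverage of long transcripts. The slope on log2 transcript length was taken from each gene's log2 coverage minus its mean over the 6 libraries. It was -0.125, -0.272 and -0.0805 per doubling in HdR, against 0.190, 0.0404 and 0.247 in WT. Only differences between libraries, and not the signs, can be read from these slopes. The length trend cannot be told apart from genotype by the design, and counts are therefore also given with it removed. Its removal used the longest annotated transcript of each gene, except where principal transcripts are named.

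All 43 genes were measured and passed the filter on low coverage. The change was negative in all 43, and in 8726 of the 15049 genes tested. In limma with Benjamini-Hochberg adjustment over 15049 genes, 33 fell in HdR, with adjusted p between 0.00442 and 0.049, and 10 did not pass the threshold of 0.05. The background of genes called lower was 17.9%, and 12.7% were called higher. No mitosis gene was called higher by limma, by voom with sample weights or at an unadjusted p under 0.05. The median log2 change was -1.04 and ran from -2.45 (Cenpf) to -0.28 (Birc5), beside a median of -0.13 over all genes tested. In 26 of the 43 genes the HdR mean was under 50% of the WT mean, a share that was not computed for all genes tested. In 38 genes all HdR libraries lay below all WT libraries, a pattern held by 30.7% of all genes tested. Once the length trend was removed, 28 of the 43 fell, against a background of 11.5%, the median was -1.02, and groups did not overlap in 37, against 26.7% of all genes.

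The HdR libraries were not alike. The median difference of the mitosis genes from their WT mean was -0.66, -0.98 and -1.61 on the log2 scale in HdR replicates 1, 2 and 3, against 0.02, -0.09 and 0.06 in the WT libraries. HdR replicate 3 had the lowest value of all 6 libraries in 41 genes, and HdR replicate 2 in the other 2. HdR replicate 1 was the highest HdR library in 36. All 43 genes in HdR replicate 3, 40 in HdR replicate 1 and 39 in HdR replicate 2 lay below every WT library. The share of all genes tested that did so was not computed for single libraries. It was 30.7% for all HdR libraries together, which is a stricter condition than for a single library. Counts of the lowest and highest library were not computed for all genes tested either. The order did not follow the length trend: HdR replicate 2 had the lowest length slope, and HdR replicate 3 the lowest mitosis gene levels. After removal of the length trend the HdR medians were -0.65, -0.88 and -1.61.

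**Figure D1:**
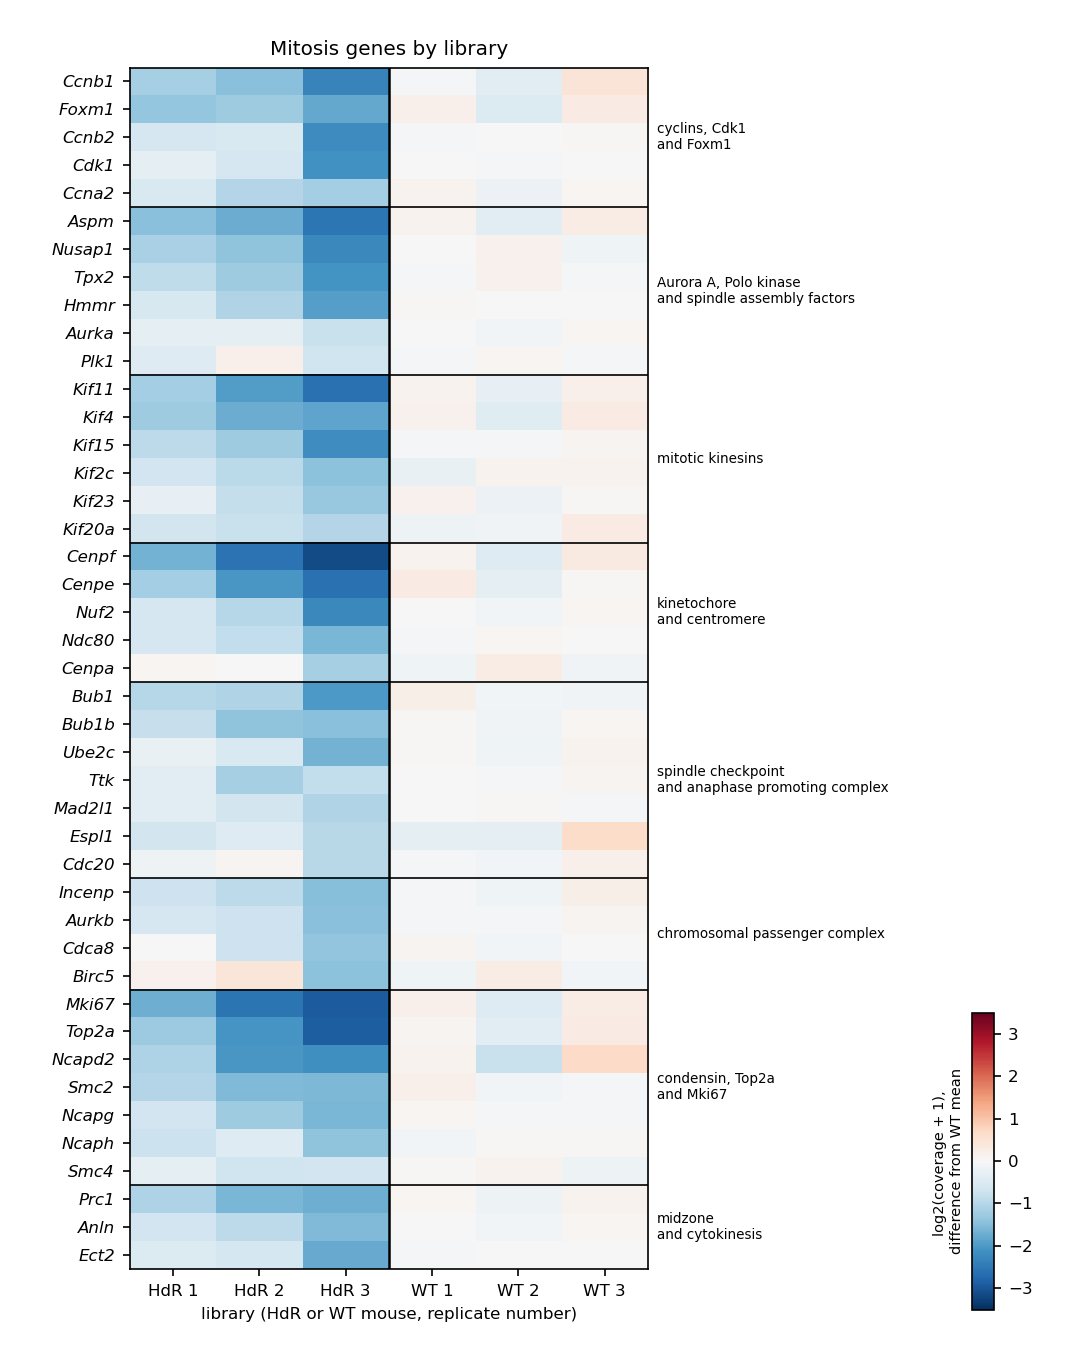
Coverage of each of the 43 mitosis genes (rows) in each library (columns), as log2(coverage + 1) minus the WT mean of that gene, by colour. HdR columns stand left of WT columns. HdR replicate 3 was lowest of all 6 libraries in 41 rows.

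Promoter sequences were read for features that the genes share beyond their role. RefSeq promoters on GRCm38.p6, reaching 250 bases before to 50 bases after the transcript start, were matched by symbol for 36 of the 43 genes. Both strands were searched for CCAAT, the NF-Y box, and for TTTGAA and TTCGAA, the common forms of the CHR. Shown are 4 promoters, chosen after the values were seen for the ends of the range: Cenpf fell most, Top2a holds the most matches among those printed, Plk1 carries both motifs and was not called, and Birc5 changed least. Each is written 5′ to 3′ in the direction of the gene, and capitals mark matches on either strand.
Cenpf, chr1:189688037-189688336, minus strand: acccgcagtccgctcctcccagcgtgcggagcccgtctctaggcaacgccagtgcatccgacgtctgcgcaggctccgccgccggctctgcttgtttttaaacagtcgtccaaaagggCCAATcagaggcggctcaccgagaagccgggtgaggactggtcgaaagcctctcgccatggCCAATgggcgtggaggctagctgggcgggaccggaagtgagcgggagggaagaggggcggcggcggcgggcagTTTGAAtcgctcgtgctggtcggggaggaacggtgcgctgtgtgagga
Top2a, chr11:99024140-99024439, minus strand: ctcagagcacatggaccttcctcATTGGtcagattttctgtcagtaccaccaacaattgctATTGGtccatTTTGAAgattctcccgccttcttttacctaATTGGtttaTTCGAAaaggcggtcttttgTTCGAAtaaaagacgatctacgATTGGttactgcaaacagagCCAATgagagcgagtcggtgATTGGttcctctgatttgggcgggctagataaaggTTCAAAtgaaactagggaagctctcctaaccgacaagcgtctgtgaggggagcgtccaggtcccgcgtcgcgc
Plk1, chr7:122159185-122159484, plus strand: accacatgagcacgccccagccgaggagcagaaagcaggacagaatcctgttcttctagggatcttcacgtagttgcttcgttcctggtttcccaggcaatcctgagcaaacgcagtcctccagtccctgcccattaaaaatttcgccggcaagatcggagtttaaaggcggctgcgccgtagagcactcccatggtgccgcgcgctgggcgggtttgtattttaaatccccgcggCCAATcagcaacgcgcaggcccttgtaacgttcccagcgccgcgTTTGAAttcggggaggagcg
Birc5, chr11:117848987-117849286, plus strand: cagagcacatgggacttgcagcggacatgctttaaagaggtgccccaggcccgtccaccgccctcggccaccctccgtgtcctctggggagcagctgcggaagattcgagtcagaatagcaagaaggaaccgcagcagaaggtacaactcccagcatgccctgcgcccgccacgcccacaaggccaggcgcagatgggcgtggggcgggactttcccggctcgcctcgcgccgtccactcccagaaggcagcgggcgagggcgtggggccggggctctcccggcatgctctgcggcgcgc
In Cenpf, CCAAT boxes begin 132 and 71 bases before the first transcribed base. TTTGAA begins at position 3, with the first transcribed base counted as 1. Top2a holds 6 CCAAT boxes, 2 TTTGAA and 2 TTCGAA. In Plk1, 1 CCAAT box begins 14 bases before the first transcribed base and TTTGAA at position 31, counted in the same way. In the Birc5 window none of these letter strings occurs, which says nothing about the factors that bind it.

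A CHR string lay in 29 of the 36 promoters (80.6%), against 17% of the 11680 promoters of tested genes and 21.7% of all 27025 promoters in the table. Within the last 100 bases of the window the shares were 72.2% of mitosis promoters and 4.44% of tested genes. CCAAT lay in 27 promoters (75.0%), against 42.4% of tested genes, and 2 or more CCAAT boxes in 50%, against 15.7%. Both motifs occurred together in 69.4%, against 7.02%. Promoters of 88 other genes of G2 and mitosis held a CHR string in 60.2% and CCAAT in 65.9%. The 40 promoters of replication genes held a CHR string in 22.5% and CCAAT in 60.0%. Among the mitosis genes, the median log2 change was -1.10 for the 29 with a CHR string and -1.27 for the 7 without. It was -1.18 for the 27 with CCAAT and -1.02 for the 9 without. The ranges overlapped, from -2.45 to -0.33 with a CHR string and from -1.95 to -0.28 without.

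**Figure D2:**
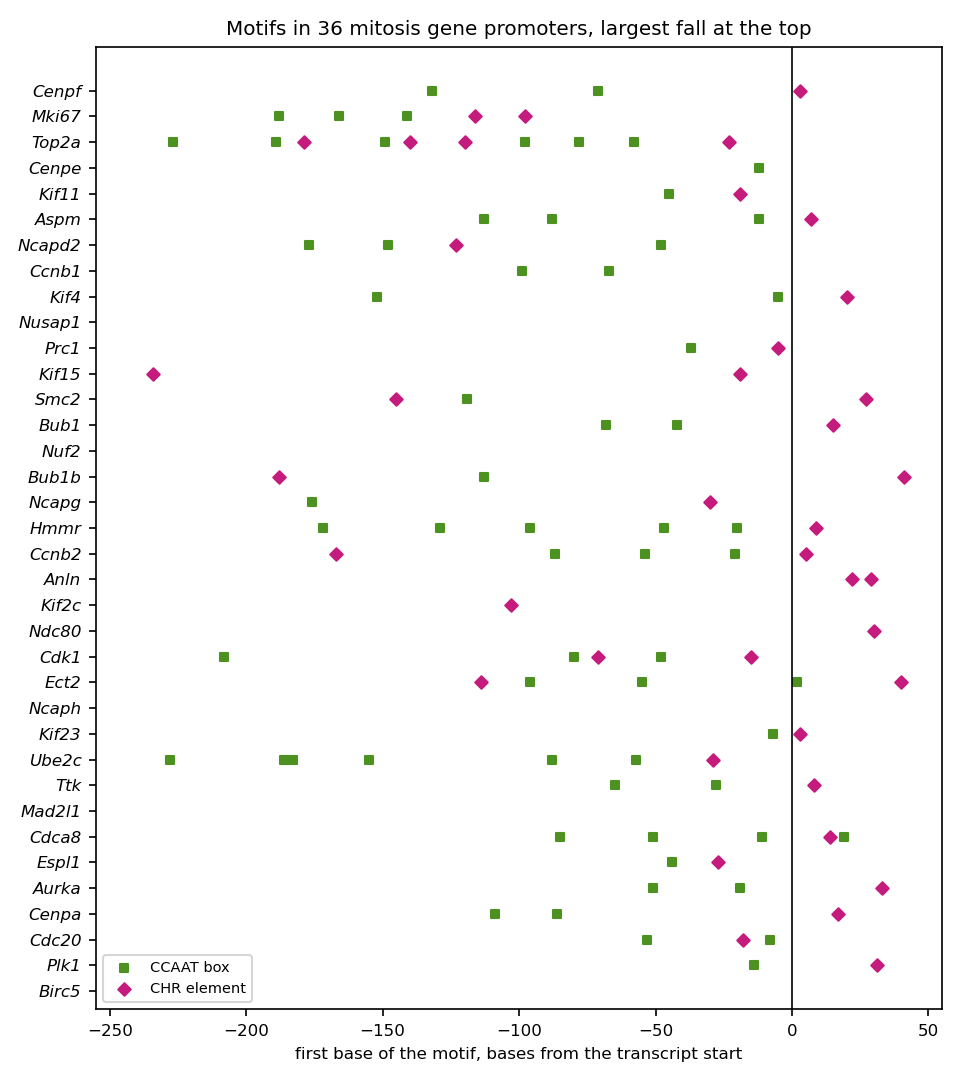
Position of CCAAT and CHR strings (x axis, first base of the motif in bases from the transcript start) in the 36 mitosis promoters with a RefSeq entry (rows), ordered by log2 change with the largest fall at the top. CHR strings gather near the start in rows along the whole range of changes.

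Among the cyclins and their partners, 3 of 5 genes fell, with a median log2 change of -1.10. Counts in this and the other groups by role stand beside 17.9% of all genes tested called lower. With the length trend removed that share was 11.5%. In 30.7% of all genes tested, all HdR libraries lay below all WT libraries. Ccnb1, which encodes cyclin B1, had 11.6, 9.26 and 4.57 bases per Mb in the HdR libraries, against 25.9, 20.5 and 37.7 in the WT libraries. All HdR libraries lay below all WT libraries, and the log2 change was -1.65 ± 0.33, adjusted p = 0.013 (limma, ± SE). Ccna2, cyclin A2 of S phase and G2, had 31.4, 21.9 and 19.6 bases per Mb in the HdR libraries, against 50.5, 39.9 and 48 in the WT libraries (-0.92 ± 0.20, adjusted p = 0.0162). Foxm1, the transcription factor of the G2 and mitosis programme, had 1.59, 1.80 and 0.915 bases per Mb in the HdR libraries, against 6.62, 3.81 and 7.11 in the WT libraries (-1.47 ± 0.26, adjusted p = 0.00985). Its levels did not overlap between the genotypes, but in HdR replicate 3 they were under 1 base per Mb. Cdk1, the kinase itself, had 26.7, 22 and 6.96 bases per Mb in the HdR libraries, against 34, 32.2 and 34 in the WT libraries. HdR replicate 3 stood far below the other HdR libraries, and Cdk1 was not called (-1.0 ± 0.40, adjusted p = 0.0835). Ccnb2, cyclin B2, had 7.50, 7.80 and 1.76 bases per Mb in the HdR libraries, against 11.4, 11.8 and 12 in the WT libraries and the same shape, with a limma adjusted p of 0.0627. With the replicate number as a block both passed the threshold, at limma adjusted p = 0.0287 for Ccnb2 and 0.0371 for Cdk1. The labels do not give this pairing. Ccnb2 also passed with the length trend removed (-1.52, adjusted p = 0.0283), and Cdk1 did not (-0.78, adjusted p = 0.199).

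Of the Aurora A, Polo kinase and spindle assembly genes, 4 of 6 fell, with a median log2 change of -1.30. Aspm, a protein of spindle poles (chromosome 1, 139454772 to 139494091, plus strand), had 6.28, 4.96 and 2.47 bases per Mb in the HdR libraries, against 20.9, 14.3 and 22.9 in the WT libraries (-1.91 ± 0.30, adjusted p = 0.0076, limma). Nusap1, which bundles spindle microtubules, had 19, 15.6 and 8.12 bases per Mb in the HdR libraries, against 42.6, 48.1 and 38.6 in the WT libraries (-1.60 ± 0.28, adjusted p = 0.00979). Tpx2, the activator of Aurora A on the spindle, had 8, 6.07 and 2.95 bases per Mb in the HdR libraries, against 14.9, 17.5 and 15.1 in the WT libraries (-1.41 ± 0.29, adjusted p = 0.0139). In all of them the highest HdR library was below the lowest WT library. Hmmr, a microtubule-binding protein of the spindle, fell by 1.18 on the log2 scale (adjusted p = 0.0244), but was not called with the length trend removed (-1.01, adjusted p = 0.0511). The kinases themselves were not called. Aurka, Aurora A, had 3.84, 3.76 and 2.52 bases per Mb in the HdR libraries, against 5.17, 4.75 and 5.36 in the WT libraries. The groups did not overlap, and the log2 change was -0.49 ± 0.20, adjusted p = 0.0822. Aurka passed the threshold with the length trend removed (-0.79, adjusted p = 0.029). Plk1, Polo-like kinase 1, had 2.59, 4.59 and 2.02 bases per Mb in the HdR libraries, against 3.80, 4.16 and 3.82 in the WT libraries. HdR replicate 2 was the highest of all 6 libraries, and the change was -0.33 ± 0.24, adjusted p = 0.317.

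All 6 mitotic kinesins fell, with a median log2 change of -1.23, where 17.9% of all genes tested were called lower. Kif11, the motor that pushes spindle poles apart (chromosome 19, 37376403 to 37421859, plus strand), had 17.7, 10.0 and 6.01 bases per Mb in the HdR libraries, against 45.4, 33.9 and 46.9 in the WT libraries (-1.92 ± 0.32, adjusted p = 0.00935, limma). Kif4, a chromosome-bound motor also found at the midzone, had 5.99, 3.94 and 3.57 bases per Mb in the HdR libraries, against 17.2, 11.4 and 19.1 in the WT libraries (-1.62 ± 0.25, adjusted p = 0.00738). Kif15, which acts beside Kif11 in keeping the spindle bipolar, had 7.77, 5.97 and 2.68 bases per Mb in the HdR libraries, against 15.1, 14.9 and 16.8 in the WT libraries (-1.44 ± 0.30, adjusted p = 0.0142). None of these overlapped between the genotypes. Kif2c, which depolymerises microtubules at kinetochores, fell by 1.02 on the log2 scale. The cytokinesis kinesins Kif20a and Kif23 had log2 changes of -0.81 (adjusted p = 0.0202) and -0.82 (adjusted p = 0.0438). With the length trend removed, Kif23 was not called (-0.73, adjusted p = 0.0727), and the other kinesins were.

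Of the kinetochore and centromere genes, 4 of 5 fell, with a median of -1.27. Cenpf, a large protein of the outer kinetochore (chromosome 1, 189640606 to 189688086, minus strand), had 8.21, 3.83 and 2.33 bases per Mb in the HdR libraries, against 30.6, 20.4 and 35.1 in the WT libraries. The means were 4.79 ± 3.06 in HdR and 28.7 ± 7.53 in WT (SD, n = 3 each), so that HdR held 16.7% of the WT mean, the lowest share among the 43 genes. The log2 change was -2.45 ± 0.36, adjusted p = 0.00615 (limma). Cenpe, the kinesin that carries chromosomes to the spindle equator, had 8.28, 4.15 and 2.43 bases per Mb in the HdR libraries, against 24.7, 16 and 20.6 in the WT libraries (-1.95 ± 0.34, adjusted p = 0.00997). Ndc80 and Nuf2 encode partner subunits of the complex that grips microtubules. Ndc80 had 7.79, 6.19 and 3.36 bases per Mb in the HdR libraries, against 11.5, 12.7 and 12.3 in the WT libraries (-1.01 ± 0.26, adjusted p = 0.023). Nuf2 had 10.4, 7.61 and 2.57 bases per Mb in the HdR libraries, against 16.2, 15 and 17 in the WT libraries (-1.27 ± 0.37, adjusted p = 0.0346). Both missed the threshold with the length trend removed, at adjusted p = 0.0522 and 0.0704. On principal transcripts Ndc80 passed it (-1.15, adjusted p = 0.0225) and Nuf2 did not (-1.06, adjusted p = 0.0817). Cenpa, the histone H3 variant that marks centromeres, had 18.9, 18 and 7.35 bases per Mb in the HdR libraries, against 15.9, 21.7 and 16.4 in the WT libraries. HdR replicates 1 and 2 lay within the WT range and HdR replicate 3 below it, and Cenpa was not called (-0.36 ± 0.32, adjusted p = 0.405).

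Of the spindle checkpoint and anaphase promoting complex genes, 4 of 7 fell, with a median of -0.81. The fallers were all checkpoint genes. Bub1, a checkpoint kinase at kinetochores, had 6.63, 6.35 and 2.80 bases per Mb in the HdR libraries, against 16.5, 13.4 and 13.1 in the WT libraries (-1.35 ± 0.28, adjusted p = 0.0141, limma). Bub1b, which encodes BubR1 of the mitotic checkpoint complex, had 6.65, 4.05 and 3.87 bases per Mb in the HdR libraries, against 12.8, 11.3 and 12.9 in the WT libraries (-1.22 ± 0.22, adjusted p = 0.0105). Ttk, the kinase that starts checkpoint signalling, had 16.3, 9.17 and 11.7 bases per Mb in the HdR libraries, against 21.8, 20.7 and 23.3 in the WT libraries (-0.81 ± 0.21, adjusted p = 0.0251). Mad2l1, the checkpoint protein MAD2, had a log2 change of -0.70 ± 0.19, adjusted p = 0.0294, and with the length trend removed -0.29, adjusted p = 0.355. None of these 4 overlapped between the genotypes. The genes that act at the exit from mitosis were not called. Cdc20, the activator of the anaphase promoting complex, had 9.32, 11.4 and 4.92 bases per Mb in the HdR libraries, against 10.0, 9.79 and 12.1 in the WT libraries. Its HdR replicate 2 lay within the WT range (-0.35 ± 0.27, adjusted p = 0.341). Ube2c, the ubiquitin-conjugating enzyme of that complex, had 10.4, 8.36 and 3.31 bases per Mb in the HdR libraries, against 13.1, 11.2 and 13.8 in the WT libraries (-0.82 ± 0.33, adjusted p = 0.0853). It was called lower with the length trend removed on principal transcripts (-1.43, adjusted p = 0.0256), and not on longest transcripts (-1.02, adjusted p = 0.0554). Espl1, the protease separase that cuts cohesin, had 2.71, 3.25 and 1.97 bases per Mb in the HdR libraries, against 3.67, 3.61 and 7.97 in the WT libraries, and its groups did not overlap (-0.68 ± 0.29, adjusted p = 0.096).

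Of the 4 genes of the chromosomal passenger complex, whose kinase is Aurora B, 2 fell, and the median was -0.81. Aurkb, the kinase, had 4.52, 4.08 and 2.03 bases per Mb in the HdR libraries, against 7.06, 7.09 and 7.82 in the WT libraries (-0.92 ± 0.25, adjusted p = 0.0271, limma). Incenp, its scaffold, had 7.49, 6.38 and 3.94 bases per Mb in the HdR libraries, against 12.4, 11.5 and 15.2 in the WT libraries (-1.04 ± 0.24, adjusted p = 0.0168). Neither overlapped between the genotypes, and both also fell with the length trend removed. Birc5, survivin (chromosome 11, 117849251 to 117855743, plus strand), had 13.5, 16.8 and 3.87 bases per Mb in the HdR libraries, against 10.9, 14.7 and 11.2 in the WT libraries. HdR replicates 1 and 2 lay above the WT mean and HdR replicate 3 below every WT library, and the log2 change was -0.28 ± 0.43, adjusted p = 0.624. Cdca8, borealin, had 10.2, 5.75 and 3.26 bases per Mb in the HdR libraries, against 11, 9.53 and 10.0 in the WT libraries. Its HdR replicate 1 lay within the WT range (-0.70 ± 0.32, adjusted p = 0.115), and without that library Cdca8 passed the threshold, at limma adjusted p = 0.0346.

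All 7 genes of chromosome structure fell, with a median of -1.39, where 17.9% of all genes tested were called lower. Mki67, which coats mitotic chromosomes and is the usual marker of cycling cells (chromosome 7, 135689784 to 135716361, minus strand), had 29.4, 15.9 and 12.1 bases per Mb in the HdR libraries, against 112, 71.5 and 119 in the WT libraries. The means were 19.1 ± 9.05 in HdR and 101 ± 25.8 in WT (SD, n = 3 each), and the log2 change was -2.40 ± 0.32, adjusted p = 0.00442 (limma). Top2a, the topoisomerase that untangles sister chromatids (chromosome 11, 98992943 to 99024189, minus strand), had 26.4, 14.8 and 7.97 bases per Mb in the HdR libraries, against 70.1, 49 and 79.6 in the WT libraries (-2.07 ± 0.37, adjusted p = 0.0103). Both genes kept the order of the HdR libraries seen over the whole list. Condensin is the ring that compacts chromosomes. Smc2, one of its ATPase subunits, had 31.7, 22 and 21.4 bases per Mb in the HdR libraries, against 75, 61.6 and 62.5 in the WT libraries (-1.39 ± 0.19, adjusted p = 0.00521). Ncapd2, a subunit of condensin I, had 5.30, 2.25 and 2 bases per Mb in the HdR libraries, against 13.5, 6.79 and 20.1 in the WT libraries (-1.76 ± 0.39, adjusted p = 0.0165). Its WT libraries differed among themselves, yet stayed above all HdR libraries. The condensin I subunits Ncapg and Ncaph had log2 changes of -1.18 and -0.87. Smc4, the partner of Smc2, had 109, 83.8 and 85.4 bases per Mb in the HdR libraries, against 140, 150 and 122 in the WT libraries (-0.56 ± 0.17, adjusted p = 0.036). Smc4 did not overlap between the genotypes, but was not called with the length trend removed (-0.34, adjusted p = 0.149).

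All 3 genes of the midzone and cytokinesis fell, where 17.9% of all genes tested were called lower. Prc1, which bundles the overlapping microtubules of the midzone, had 10.9, 7.29 and 6.67 bases per Mb in the HdR libraries, against 25.2, 21.1 and 26.5 in the WT libraries (-1.47 ± 0.21, adjusted p = 0.00582, limma). Anln, the cleavage furrow protein anillin, had 28.1, 23.5 and 14.7 bases per Mb in the HdR libraries, against 45.8, 41.9 and 47.7 in the WT libraries (-1.04 ± 0.23, adjusted p = 0.0159). Ect2, the exchange factor that activates RhoA at the furrow, had 9.23, 8.16 and 3.13 bases per Mb in the HdR libraries, against 12.7, 13.4 and 13.3 in the WT libraries (-0.95 ± 0.32, adjusted p = 0.049). The genotypes did not overlap in any of them. Ect2 was not called with the length trend removed (-0.76, adjusted p = 0.125), and Prc1 was. Anln was called with removal on longest transcripts (-0.79, adjusted p = 0.0449) and not with removal on principal transcripts (-0.76, adjusted p = 0.0517).

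**Figure D3:**
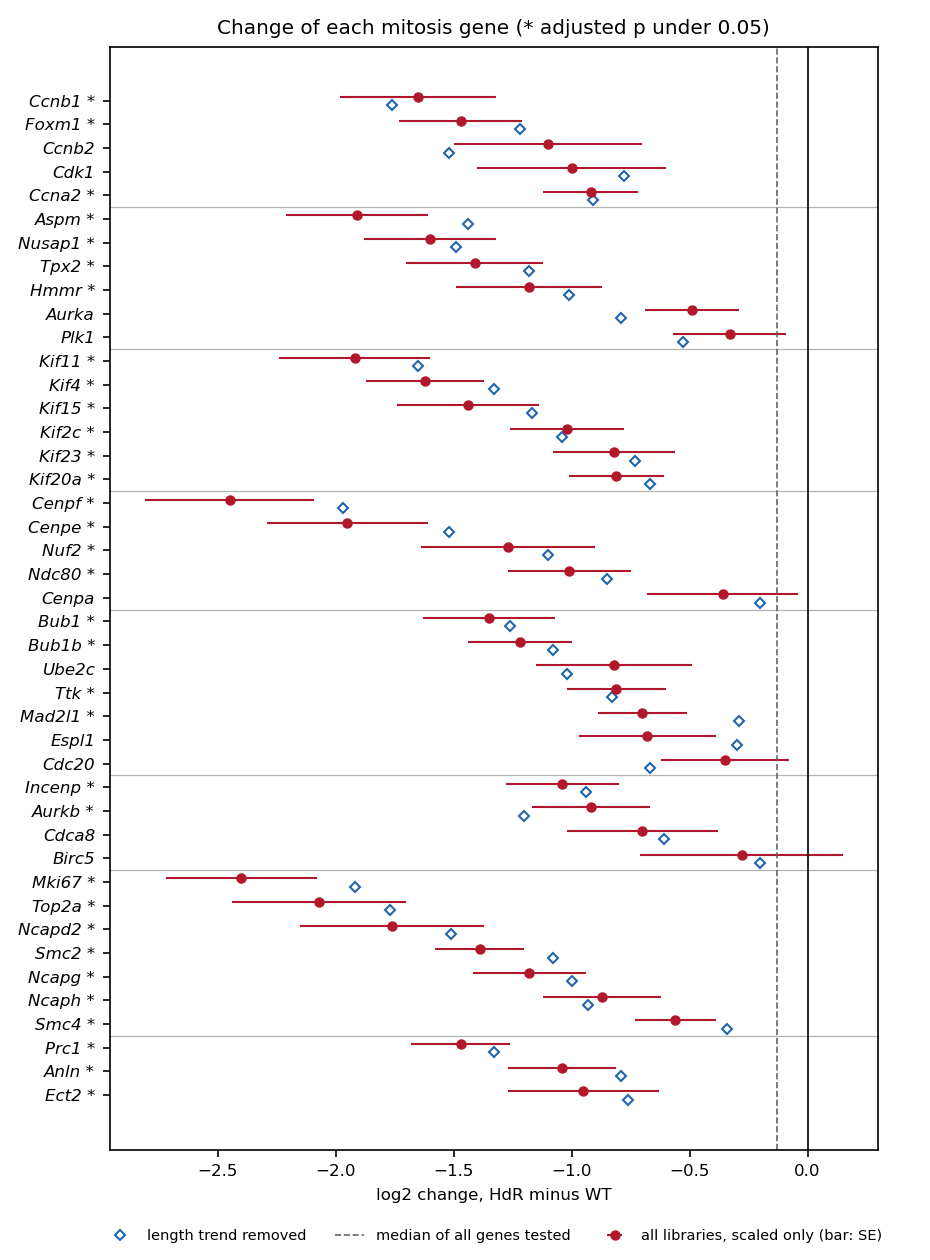
Log2 change, HdR minus WT (x axis), of each mitosis gene by role (rows). Filled points with SE bars are limma estimates, open diamonds those with the length trend removed, asterisks mark adjusted p under 0.05 and the dashed line is the median of all genes tested (-0.13). All 43 points lie left of 0.

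The size of the change varied with transcript length. Principal transcripts of the 43 genes were 947 to 11130 nt long, with a median of 3674 nt, against 3023 nt for all genes tested. Across the 43 genes, which share their libraries, the log2 change and log2 length had Pearson's r of -0.68 and Spearman's rho of -0.62. The 14 genes over 4500 nt had a median change of -1.69, where 3782 genes of that length had -0.49. The 10 genes under 2500 nt had -0.66, where 5751 genes of that length had 0.25. At both ends the mitosis genes thus lay below genes of like length. With the trend removed on longest transcripts the medians of these 14 and 10 genes were -1.39 and -0.82, and r was -0.40. With removal on principal transcripts they were -1.37 and -1.02, and r was -0.23. On longest transcripts, 26 of the 43 genes were called both with and without the trend, 7 only with it left in (Nuf2, Hmmr, Ndc80, Ect2, Kif23, Mad2l1 and Smc4), 2 only after its removal (Ccnb2 and Aurka), and 8 in neither. On principal transcripts the calls were the same but for 3 genes: Ndc80 and Ube2c were called lower, and Anln was not. Birc5 has a longest transcript of 3334 nt and a principal one of 947 nt, and its corrected log2 change was -0.20 on the longest and -0.90 on the principal (limma adjusted p = 0.76 and 0.107). Annotated lengths need not be those of the expressed transcripts.

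**Figure D4:**
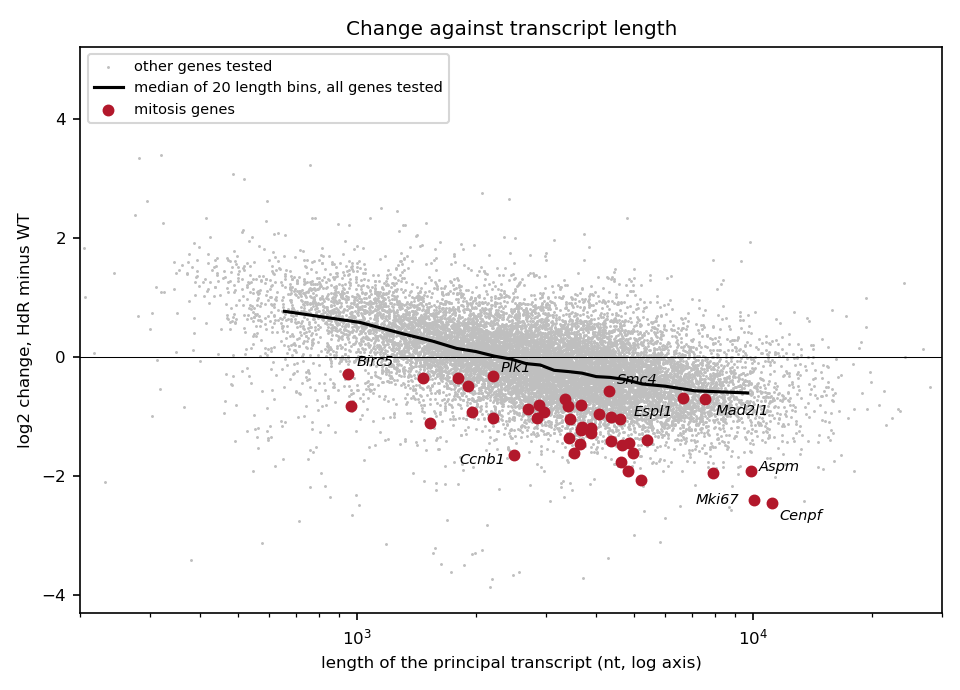
Log2 change, HdR minus WT (y axis), against the length of the principal transcript in nt (x axis, log scale) for all genes tested (grey) and the 43 mitosis genes (red). The black line joins medians of length bins, and most mitosis genes lie below it.

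Levels between genes were compared per kb of principal transcript, as means over each genotype. Smc4 was the most abundant, at 21.5 bases per Mb per kb in HdR and 31.8 in WT. In HdR it was followed by Birc5 at 12, Cenpa at 10.1 and Ccna2 at 8.19, and in WT by Ccna2 at 15.6 and Ube2c at 13.1. Birc5 stood at 12.9 and Cenpa at 12.3 in WT, so that neighbours in this order were close. Foxm1 was lowest in HdR, at 0.309 against 1.26 in WT, and Espl1 was lowest in WT, at 0.397 in HdR and 0.763 in WT. Mki67 stood at 1.90 in HdR and 10.0 in WT, and Cenpf at 0.430 in HdR and 2.58 in WT.

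Of 110 other genes of G2 and mitosis, from 3 further lists, 47 (42.7%) fell and 1 rose, with a median of -0.69. Of all genes tested, 17.9% were called lower and 12.7% higher. After removal of the length trend, 44 fell and 1 rose, where 11.5% of all genes were called lower. Among other kinetochore and centromere genes, 11 of 36 fell (median -0.41). Knl1, the kinetochore scaffold that binds microtubules and Bub1, had 11.9, 10.0 and 4.03 bases per Mb in the HdR libraries, against 27.8, 26.8 and 27.4 in the WT libraries (-1.66 ± 0.32, adjusted p = 0.0125, limma). Hjurp, the chaperone of Cenpa, had 45.1, 32.7 and 40.1 bases per Mb in the HdR libraries, against 113, 71.5 and 127 in the WT libraries (-1.35 ± 0.23, adjusted p = 0.00975), and its client Cenpa was not called. Kntc1, a kinetochore gene, had a log2 change of -1.23. Among other spindle, centrosome and cytokinesis genes, 20 of 32 fell (median -0.95). They were led by p with Kif24 (-1.46 ± 0.19, adjusted p = 0.00419), Ckap2 (-1.35 ± 0.20, adjusted p = 0.0067), Nek2 (-1.24 ± 0.20, adjusted p = 0.00825) and Troap (-1.16 ± 0.19, adjusted p = 0.00828). Kif24 had 1.21, 0.92 and 0.829 bases per Mb in the HdR libraries, against 4.4, 3.74 and 5.26 in the WT libraries. Troap had 0.687, 0.527 and 0.331 in HdR, against 2.3, 1.99 and 2.86 in WT. The HdR levels of Kif24 and Troap thus lay near or under the filter level of 1 base per Mb.

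Among other regulators and chromatin genes of mitosis, 16 of 42 fell and 1 rose (median -0.64). Mastl, the Greatwall kinase that keeps phosphatase PP2A off Cdk1 substrates, had 7.2, 7.52 and 4.19 bases per Mb in the HdR libraries, against 16.3, 16.1 and 16.6 in the WT libraries (-1.28 ± 0.22, adjusted p = 0.00975, limma). Ncapg2, a subunit of condensin II, had 24.7, 13.6 and 16.3 bases per Mb in the HdR libraries, against 48.1, 39.6 and 53.3 in the WT libraries (-1.35 ± 0.23, adjusted p = 0.00964). Shcbp1 and Neil3 had log2 changes of -1.45 and -1.55. The gene that rose was Ube2s, which elongates ubiquitin chains for the anaphase promoting complex, with 83.2, 103 and 67.8 bases per Mb in the HdR libraries, against 51.9, 60.9 and 44.8 in the WT libraries (0.67 ± 0.20, adjusted p = 0.0344). Its partner Ube2c had a negative change that was not called.

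Of 52 genes of DNA replication and S phase, the stage that precedes G2 and mitosis, 17 fell and 2 rose, with a median of -0.37. The shares were 32.7% lower and 3.85% higher, beside 17.9% and 12.7% of all genes tested. The difference from the mitosis genes was not tested. Mcm6, a subunit of the replicative helicase, had 27.6, 17.2 and 18.8 bases per Mb in the HdR libraries, against 68, 45.5 and 71.6 in the WT libraries (-1.50 ± 0.24, adjusted p = 0.00788, limma). Pola1, the catalytic subunit of polymerase alpha, had 14.3, 11.9 and 14 bases per Mb in the HdR libraries, against 32.8, 25.4 and 30.1 in the WT libraries (-1.07 ± 0.17, adjusted p = 0.00793). Rrm1, of ribonucleotide reductase, and Clspn, claspin of the replication checkpoint, had log2 changes of -1.19 and -1.35. The 2 genes that rose were Tipin, a replication fork protein (1.02 ± 0.21, adjusted p = 0.0145), and Dut, the dUTPase (0.64 ± 0.18, adjusted p = 0.0303). After removal of the length trend 9 fell and 1, Tipin, rose, where 11.5% of all genes were called lower. The summed coverage of the 52 genes was 1170, 1250 and 942 bases per Mb in the HdR libraries, against 1170, 1200 and 1140 in the WT libraries, and the genotypes overlapped. Pcna, the sliding clamp of replicative polymerases, had the highest coverage of the 52, with 275, 353 and 248 bases per Mb in the HdR libraries, against 199, 245 and 178 in the WT libraries, and was not called (0.49 ± 0.20, adjusted p = 0.0866). Without Pcna, which was left out after the data were seen, the sum was 892, 897 and 694 in HdR. It was 968, 955 and 964 in WT, with no overlap. The summed coverage of the 43 mitosis genes was 628, 479 and 323 in HdR, against 1130, 996 and 1160 in WT, with no overlap.

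Of 15 tested genes for CDK inhibitors, pocket proteins, D cyclins and their kinases, 5 fell and 2 rose. The shares were 33.3% lower and 13.3% higher, beside 17.9% and 12.7% of all genes tested. Rbl1, the p107 subunit of DREAM-type complexes, had 19.8, 16.1 and 14.9 bases per Mb in the HdR libraries, against 29.3, 26.1 and 28 in the WT libraries (-0.69 ± 0.17, adjusted p = 0.0205, limma). Ccnd2, cyclin D2, had 72.3, 55.5 and 103 bases per Mb in the HdR libraries, against 154, 124 and 150 in the WT libraries (-0.92 ± 0.23, adjusted p = 0.0212), and Cdk6, its kinase partner, 23.8, 16.3 and 24.2 bases per Mb in the HdR libraries, against 40.8, 31 and 44.6 in the WT libraries (-0.83 ± 0.21, adjusted p = 0.023). The pocket protein gene Rb1 and the kinase gene Cdk2 fell by 0.70 and 0.63 on the log2 scale. The inhibitor genes Cdkn2c, p18, and Cdkn1c, p57, rose, with log2 changes of 0.78 ± 0.22, adjusted p = 0.0292 and 0.48 ± 0.15, adjusted p = 0.0396. After removal of the length trend none of the 5 was called lower, and Cdkn2c was the one gene called higher. Cdkn1a, p21, had 187, 161 and 165 bases per Mb in the HdR libraries, against 148, 126 and 147 in the WT libraries and was not called (adjusted p = 0.183).

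Markers of cell types that could hold or dilute dividing cells were read from the same fit. In it 17.9% of all genes tested were called lower and 12.7% higher, and 11.5% lower with the length trend removed. Hair matrix and inner root sheath genes were also lower in HdR: 14 of 17 fell and 0 were called higher by limma (median -2.06). With the length trend removed, 12 of 16 with a known length fell. Foxn1, Gata3 and Lef1 were not called (-0.92, -0.11 and 0.11). The summed coverage of the list was 116, 233 and 169 bases per Mb in HdR, against 709, 996 and 1040 in WT. Krt71, an inner root sheath keratin, had 3.76, 15.6 and 9.38 bases per Mb in the HdR libraries, against 96, 127 and 151 in the WT libraries. Krt25, another, had 6.93, 20.6 and 13.5 bases per Mb in the HdR libraries, against 109, 139 and 151 in the WT libraries. Tchh, trichohyalin, had 12.5, 69.9 and 33 bases per Mb in the HdR libraries, against 194, 342 and 302 in the WT libraries. In none of them did the genotypes overlap. Shh, which matrix cells secrete, was at 0 in HdR replicates 1 and 3 and at 0.0781 in HdR replicate 2, against 1.07 to 1.67 in WT. Shh, counted among the 14, passed the filter of 1 base per Mb only through its WT libraries. It was picked for mention after its values were seen. The lowest hair sum was in HdR replicate 1, and the lowest mitosis sum in HdR replicate 3. Basal keratinocyte markers summed to 5380, 4700 and 4610 in HdR, against 6390, 7370 and 7410 in WT. Of these markers 2 of 10 fell, near the share of all genes tested. They were Krt14 (log2 change -0.71, limma adjusted p = 0.0487) and Dst (-0.88, adjusted p = 0.0305). Krt5 and Krt15, with log2 changes of -0.40 and 0.12, were not called. The part of hair and basal cell content in the mitosis result was not tested.

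Markers of wounded and hyperproliferative epidermis summed to 1260, 1710 and 720 in HdR, against 1070, 903 and 1000 in WT, with Krt6a, Krt16 and Krt17 not called. HdR replicate 3, lowest in mitosis genes, was also lowest in this sum. Of this list Slpi rose and Sprr1a fell, 11.1% in each direction, beside 12.7% of all genes tested called higher and 17.9% lower. Monocyte and macrophage markers, 6 of 12 called higher, summed to 2710, 2390 and 2610 in HdR, against 1110, 1610 and 841 in WT, and Lyz2 had a log2 change of 1.67, adjusted p = 0.01 (limma). Adgre1 and Fcgr1, abundant in this list too, were not called (0.28 and -0.11). Neutrophil markers, 5 of 7 tested called higher, summed to 975, 3190 and 702 in HdR, against 187, 201 and 145 in WT, mostly S100a8 and S100a9, which keratinocytes also make. The other called ones were Retnlg, Cxcr2 and Mmp8, and the abundant Csf3r was not called (0.20). Ly6g, Camp and Ngp were too low to be tested. T and NK cell markers summed to 184, 152 and 110 in HdR, against 149, 176 and 137 in WT, and 1 of 9 fell (Il2rb), while the more abundant Cd3g, Gzmb and Thy1 were not called (0.42, 0.36 and -0.27). Fibroblast markers summed to 6220, 7760 and 6300 in HdR, against 7050, 7920 and 5560 in WT, with 2 of 8 lower (Col1a1 and Col1a2) and 1 higher (Dpt), and with Col3a1 (-1.22) and Dcn (0.45) not called. Endothelial markers summed to 123, 86.3 and 129 in HdR, against 151, 140 and 144 in WT, with 2 of 7 lower (Cdh5 and Tek) and Pecam1, Emcn and Cldn5 not called (-0.84, 0.01 and 0.07). Shares called lower were 11.1% of T and NK cell, 25.0% of fibroblast and 28.6% of endothelial markers, beside 17.9% of all genes tested. Of fibroblast markers 12.5% were called higher, beside 12.7%. In lists this short these shares are not read as changes of a cell type. The sums of T and NK cell and of basal keratinocyte markers had the same order over the HdR libraries as the mitosis genes. The other marker sums did not. HdR replicates 2 and 3 were close in the basal sum, at 4700 and 4610. The part of any of these cells in the result was not tested.

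**Figure D5:**
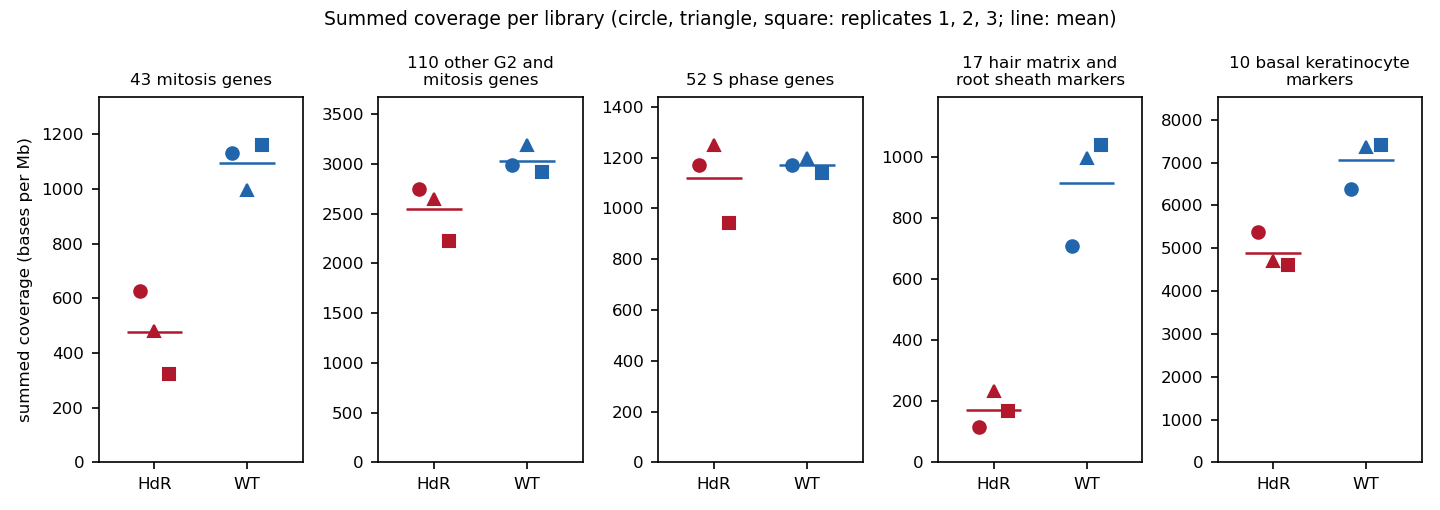
Summed coverage in bases per Mb per library (y axes from 0) for mitosis genes, other gene lists and cell type markers, with HdR left of WT. Each symbol is a library and each line a mean. Among the 5 sums the genotypes overlap only in that of S phase. It no longer overlaps once Pcna is left out, a step added after seeing the data.

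The count of fallers depended on single libraries. Without WT replicate 1, 13 of the 43 genes fell, against a background of 2.25%, and without WT replicate 3, 20 fell, against 5.52%. Without HdR replicates 1, 2 and 3 the counts were 33 (background 11.9%), 21 (7.6%) and 25 (13.4%), and without WT replicate 2 the count was 31 (22.8%). The median change stayed between -1.35 and -0.79 in these fits. The 13 genes called whichever library was left out were Mki67, Top2a, Cenpe, Cenpf, Bub1b, Ccnb1, Kif11, Kif4, Nusap1, Prc1, Aspm, Smc2 and Foxm1. Bub1, Ccna2, Kif15, Tpx2, Anln and Ncapg missed the threshold only without WT replicate 1 (limma adjusted p of 0.0511 to 0.0729). Incenp missed it without WT replicate 1 or 3, and Ncapd2 without WT replicate 1 or HdR replicate 2. Kif2c, Ndc80, Nuf2 and Hmmr missed it without WT replicate 1 or 3 or HdR replicate 2. Ttk, Mad2l1, Aurkb, Kif20a and Kif23 did so without any of these or HdR replicate 3, and Ncaph without WT replicate 1 or 3 or HdR replicate 1 or 3. Smc4 and Ect2 kept their call only without HdR replicate 1. The highest adjusted p of these 14 genes in such a fit was 0.143. With the length trend also removed, counts ran from 2 (Mki67 and Prc1, without WT replicate 1, background 1.2%) to 31 (without HdR replicate 1, 7.54%).

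Other processing moved the count as well. It was 31 of 43 with median-of-ratios scaling (background 15.9%), 39 with scaling to total bases (28.6%) and 26 with quantile normalisation (13.9%). A pseudocount of 0.1 gave 32 (17.8%), no filter 22 (4.84%), and a filter at 5 bases per Mb 32 of the 39 genes that it left (19.9%). With voom and sample weights 37 fell (30.9%). The replicate block gave 35 (27.2%), and 33 together with removal of the length trend (19.9%). Length removal on principal transcripts gave 29 (11.3%), and removal together with the library mean 25 (8.48%). In each of these fits all tested mitosis genes had a negative change.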

How the data were processed

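The authors deposited 1 table of coverage, a signal of aligned bases summed per gene, for 3 HdR and 3 WT libraries of ear skin RNA, as read from the file headers and values. Values gather at multiples of 300, a pair of 150-base reads, and are not counts. Among low values (bound 3000), 10.2% were such multiples, against 0.333% by chance, so that most were not. The labels name TRIzol and RNeasy for extraction and NEBNext Ultra II for the libraries, and the submitters' processing notes name GRCm38. The sources used here give no aligner, annotation, strand use or RNA selection, so that reads of overlapping antisense genes cannot be told apart.

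Each column was scaled by the trimmed mean of M values, written out in R, to coverage per Mb. The 15049 genes that reached 1 base per Mb in 3 or more libraries entered robust limma-trend (limma 3.58.1, R 4.3.3) as log2 of the value plus 1, HdR minus WT. Two-sided p were adjusted over all of them by the Benjamini-Hochberg method, and genes under 0.05 were called. The code of the fit was run on simulated data with independent genes, which does not test the spread between the real libraries. The length trend was taken out of each library with a natural spline (4 df) on log2 length of the longest GENCODE M21 transcript, keeping the library mean. Members and lists were chosen with earlier results of these data known. All 43 mitosis genes were named, from each other list the 4 smallest p, from each marker list the 3 most abundant genes, and any gene in a count of 5 or fewer. The values of 1 gene named by this rule are not reported here. Further genes (Cdkn1a and Shh) were chosen after their values were seen.

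The labels do not say what a replicate number shares. Same-numbered HdR and WT libraries deviated together, with correlations of 0.163, 0.416 and 0.366, all over 0.1, and were taken as pairs in the fit with a replicate block. Unlike-numbered libraries reached 0.159 (HdR replicate 3 with WT replicate 1) and 0.0976 (HdR replicate 1 with WT replicate 3), and the others were negative. The pairing was thus read from these same data and is not settled by them. Alternatives were other scalings, pseudocount, filters, the block, voom, length removal and each library left out. Length removal together with the library mean and with principal transcripts, and the S phase sum without Pcna, were added after seeing the data.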

Additional observations from a re-analysis of the deposited data

How the results depend on the processing

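Every mitosis gene that could be tested kept a negative change under each scaling, filter, pseudocount, pairing, voom and length removal tried (39 genes could be tested with the filter at 5 bases per Mb). The sign turned without HdR replicate 3 in Cenpa (log2 change 0.05, and 0.23 with the length trend removed) and in Birc5 (0.29 and 0.39). None of these 4 values passed the threshold (limma adjusted p of 0.875, 0.453, 0.339 and 0.244). Leaving out each library in turn gave -0.58 to 0.05 for Cenpa and -0.65 to 0.29 for Birc5, and with the length trend also removed -0.44 to 0.23 and -0.60 to 0.39. The median change ran from -1.35 (total scaling) to -0.89 (quantile scaling) over the scalings, while the median of all genes moved to -0.41 under total scaling and -0.02 under quantile scaling. With the replicate block 35 mitosis genes fell (background 27.2%), and the pairing changed no other call of a mitosis gene in the scaled data than those of Ccnb2 and Cdk1.

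Over all genes, 4605 were called, 41.3% of them higher. The count was 2144 without a filter, 2889 with the length trend removed, 2884 with the library mean also removed, 2777 with principal transcripts and 8045 with voom. For the other genes of G2 and mitosis 48 were called, and 28 without a filter. For S phase 19 were called, and 10 with quantile scaling, 8 without a filter, 10 with the length trend removed, 7 with the library mean also removed and 30 with voom. For CDK inhibitors and D cyclins 7 were called, and 1 without a filter, 1 with the length trend removed, 1 with the library mean also removed and 2 with principal transcripts. Leaving out 1 library, with the length trend left in or removed, gave 258 to 6097 calls over all genes, 2 to 33 for the mitosis genes (2 to 31 with the trend removed), 2 to 54 for other G2 and mitosis genes, 1 to 21 for S phase and 0 to 7 for CDK inhibitors and D cyclins. The causes of these differences were not tested.

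With 3 samples a genotype, precision is limited by their number, and lone genes near the threshold change with 1 library. Foxm1, Plk1, Kif2c, Espl1 and Aurka lie at a few bases per Mb, where adding 1 before the logarithm understates changes. In HdR so do others, among them Cenpf, Cenpe, Kif4, Aurkb, Ncapd2 and Ncaph. The length correction assumes annotated lengths.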
